A study of Homo sapiens with 6 samples.

Results

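The genes described here are 9 components of B cell receptor signalling, namely CD79A, CD79B, LYN, SYK, BTK, BLNK, PLCG2, BCL10 and MALT1. They were taken by symbol and not by a threshold on their values, but with earlier results of these data known. Every transcript whose symbol in the authors' deposited table is one of the 9 was used. TPM, which is a share of all transcripts in a library and allows for their length, was summed for each Ensembl gene ID. This gave 12 gene IDs of 63677 and 75 transcripts of 215170, because CD79A, BTK and BLNK each occur under 2 gene IDs. The libraries are total RNA of KMS27, an established human line of malignant plasma cells from multiple myeloma. In 3 libraries the cells were labelled HA-TAZ, and in 3 libraries they were labelled wild type. HA-TAZ is TAZ, the Hippo-regulated transcriptional coactivator encoded by WWTR1, with an HA peptide tag. The promoter of the construct, its integration and any clonal selection are not given in the labels, the wild type samples also carry HA in their titles, and no label says whether libraries of a group came from separate cultures. The p-values below therefore measure the spread between these libraries, which may be technical. The wild type columns were assigned by elimination and carry the letters a to c here (control a, b and c). Their deposited name is scr, which no label explains, so whether these cells were unmanipulated is not known.

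In a B cell, the receptor is a membrane immunoglobulin that cannot signal by itself and depends on the CD79A and CD79B heterodimer, whose tails are phosphorylated by the Src family kinase LYN. SYK then docks on these tails and phosphorylates the adaptor BLNK, on which the Tec family kinase BTK and phospholipase C gamma 2 (PLCG2) assemble. The products of PLCG2 release calcium and activate protein kinase C, upstream of the assembly of filaments of BCL10 and MALT1. MALT1 is both a scaffold that recruits ubiquitin ligases and a protease, and its complex activates NF-kappaB. Normal plasma cells secrete their immunoglobulin and lose most of the receptor pathway, while NF-kappaB remains a survival pathway in many myelomas.

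MALT1 is the member on which most of the data bear, and its 2 leading transcripts differ in their coding part by 33 bases, or 11 codons. ENST00000348428.3 has the 17 exons of the longer form, known as MALT1A, and ENST00000345724.3 has 16 and lacks exon 7, the form known as MALT1B. In the literature on T cells, exon 7 carries a binding motif for the ubiquitin ligase TRAF6. In GENCODE release 29 (GRCh38), exon 7 lies on the plus strand of chromosome 18 from 58710921 to 58710953, inside the coding sequence. The junctions are shown 5′ to 3′ with 30 bases on either side, because this coding difference separates the transcripts compared below, and capitals mark exon 7.
MALT1 with exon 7: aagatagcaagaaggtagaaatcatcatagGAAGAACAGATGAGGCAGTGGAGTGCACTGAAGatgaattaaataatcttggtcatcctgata
MALT1 without exon 7: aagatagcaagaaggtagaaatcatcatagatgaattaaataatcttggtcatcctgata

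The labels held for the overexpressed gene: WWTR1 lay between 293 and 306 TPM in the HA-TAZ libraries and between 1.69 and 2.69 TPM in the controls. TPM carries no depth, but mean log counts from the authors' deposited table imply 52740740.4 estimated counts per library, as a sum of geometric means. Of 10 plasma cell markers found, only CD27 stayed under 1 TPM in all 6 libraries. Their summed level was lower with HA-TAZ, from 2785 to 3217 TPM against 4270 to 4825 TPM in the controls, and most of it was IGJ, the joining chain of secreted immunoglobulin (means of 2457 and 3792 TPM). These are deposited TPM, in which 43.6% of all tested genes were lower without overlap, and the means of SDC1 (92.2 against 87.7 TPM), SLAMF7 (7.01 against 3.93 TPM) and CD27 were higher with HA-TAZ. Of 8 mature B cell markers, 6 stayed under 1 TPM in every library, MS4A1 and PAX5 among them. The exceptions were CR2, from 8.27 to 9.78 TPM, and CIITA, and the list summed to 18.6 to 19.4 TPM with HA-TAZ and 15.1 to 18.1 TPM in the controls. T cell markers summed to at most 2.52 TPM, with 5 of 6 under 1 TPM in all libraries, and were lower with HA-TAZ (1.52 to 1.53 TPM against 2.40 to 2.52 TPM). Myeloid markers (4 of 6 under 1 TPM) summed to 3.00 to 3.81 TPM with HA-TAZ and 2.94 to 3.32 TPM in the controls, with S100A8 listed at 0 throughout. Fibroblast markers (3 of 5 under 1 TPM) summed to 3.32 to 4.07 TPM and 3.85 to 5.18 TPM. Whether these lists have a part in any result below was not tested, and in bulk RNA fewer cells of a type and less RNA per cell cannot be told apart.

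CD79A, CD79B, SYK and BTK were close to 0 in both groups, while MALT1 was abundant. Of the 12 gene IDs, 6 stayed below 1 TPM in every library: both IDs of CD79A and of BTK, CD79B and SYK. PLCG2 stood at the threshold, LYN, BCL10 and each BLNK ID lay at a few TPM, and MALT1 lay near 30 TPM. No member changed at an adjusted p-value under 0.05 in limma, on TPM scaled between libraries by median-of-ratios factors. Tests covered genes with a mean of at least 1 TPM. The members that passed this filter are 5 gene IDs of 4 symbols (MALT1, BCL10, LYN and both BLNK IDs), 0 of 5 were called and 1 had an unadjusted p under 0.05, against 7.29% called and 30.7% under that unadjusted p among all 22651 tested genes.

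**Figure D1:**
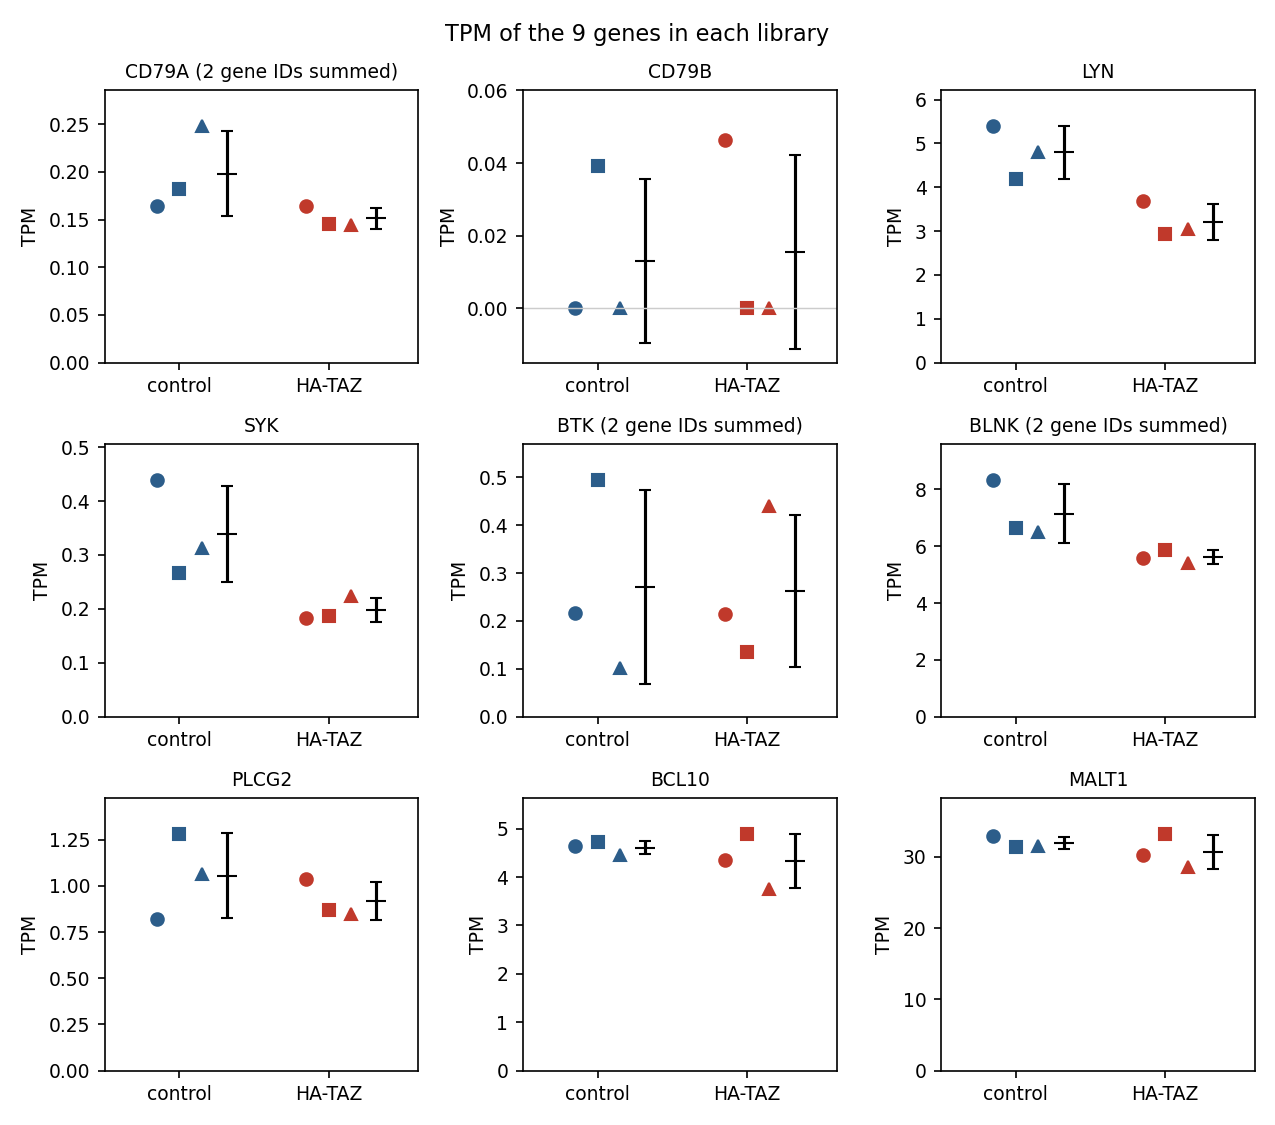
TPM of each of the 9 genes in each library on linear axes, with symbols for library 1 or a (circle), 2 or b (square) and 3 or c (triangle), and bars for the mean ± SD (n = 3). MALT1 lies between 28.6 and 33.2 TPM in all 6 libraries, and CD79B is listed at 0 in 4 of them. CD79A, LYN, SYK and summed BLNK are lower with HA-TAZ without overlap on this unscaled axis. So are 43.6% of all tested genes, which do not include CD79A and SYK.

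CD79A and CD79B encode the signal-transducing dimer of the receptor. CD79B was listed at 0 in HA-TAZ 2, HA-TAZ 3, control a and control c, at 0.0463 TPM in HA-TAZ 1 and at 0.0392 TPM in control b. These 2 values came from different transcripts, a retained-intron model in HA-TAZ 1 and a protein-coding model in control b. CD79A was at 0.0819, 0.0727 and 0.0721 TPM in HA-TAZ 1, 2 and 3 and at 0.0820, 0.0912 and 0.124 TPM in control a, b and c, under each of its 2 gene IDs. The 3 transcripts of one ID carry the same values as those of the other within 0.1%, so the reads of CD79A were split evenly between copies. The CD79A groups did not overlap in TPM only because HA-TAZ 1 lay just below control a, and they overlapped after scaling (exact two-sided permutation p = 0.8). For CD79B the exact p was 1.0.

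CD79 serves membrane immunoglobulin, and 8 of its 9 heavy chain constant genes lay below the filter of a mean of 1 TPM. TPM summed per gene does not separate membrane from secreted forms. IGHM and IGHD, the heavy chain constant genes of a naive B cell receptor, reached at most 0.0437 and 0.0140 TPM per gene ID in any library. IGHG1 reached at most 0.0838 TPM and IGHG3 was listed at 0. IGHA1 was the highest of the 9 heavy chain constant genes, from 1.86 to 2.60 TPM under each of its 2 gene IDs, and did not pass the test (log2 fold change 0.12, SE 0.10, limma adjusted p = 0.442).

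LYN is the kinase that starts the signal at the receptor and also phosphorylates inhibitory receptors. Its TPM was 3.69, 2.92 and 3.04 in HA-TAZ 1, 2 and 3 and 5.40, 4.19 and 4.80 in control a, b and c. Every HA-TAZ library lay below every control in TPM, a pattern shared by 43.6% of all tested genes. After scaling, LYN was at 3.57 ± 0.630 against 4.28 ± 0.385 scaled TPM (SD, n = 3) and HA-TAZ 1 lay inside the control range. The log2 fold change was −0.22 (SE 0.13, 95% interval −0.53 to 0.10, limma adjusted p = 0.304), so a fall by up to 0.53 and a rise by up to 0.10 on the log2 scale both remain within the interval.

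The 2 LYN transcripts with most of its TPM encode 512 codons (ENST00000519728.1) and 491 codons (ENST00000520220.2), the forms known as LYN A and LYN B, whose coding parts differ in length by 21 codons. ENST00000520220.2 was at 1.80, 1.36 and 1.54 scaled TPM in HA-TAZ 1, 2 and 3 and at 2.53, 2.08 and 2.02 scaled TPM in control a, b and c. These groups did not overlap on either scale, as in 15.4% of all tested transcripts on the scaled one, and the fold change was −0.32 (SE 0.12, limma adjusted p = 0.181). ENST00000519728.1 had a log2 fold change of 0.03 (SE 0.15, adjusted p = 0.909, limma). The share of LYN in ENST00000520220.2 was 44.1% ± 1.51 with HA-TAZ and 51.8% ± 6.42 in the controls (SD, n = 3), with overlap and an exact two-sided permutation p of 0.3. The log2 ratio of ENST00000519728.1 to ENST00000520220.2 was higher by 0.54 with HA-TAZ (SE 0.35) and did not pass a limma test of such ratios (adjusted p = 0.399), which was added after seeing the data. For ENST00000520220.2 the authors' deposited table lists a natural log effect of −0.33 and a q-value of 0.0725.

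SYK is the tandem-SH2 kinase that relays the signal from CD79. Its TPM was 0.183, 0.187 and 0.224 in HA-TAZ 1, 2 and 3 and 0.439, 0.267 and 0.312 in control a, b and c. The groups did not overlap in TPM (exact two-sided permutation p = 0.1, the smallest that 3 against 3 libraries allow). After scaling they were at 0.219 ± 0.0298 and 0.301 ± 0.0591 scaled TPM (SD, n = 3), HA-TAZ 3 lay above control b, and the exact p was 0.2. The estimates alternated between 2 protein-coding transcripts: nearly all SYK was in ENST00000375754.4 in HA-TAZ 1, HA-TAZ 3 and control c, and most of it was in ENST00000375746.1 in HA-TAZ 2, control a and control b. The split thus did not follow the groups, and the natural log effects of the 2 transcripts in the authors' deposited table had opposite signs, 1.07 (standard error 1.83) and −1.91 (standard error 2.32).

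BTK is the Tec family kinase that phosphorylates PLCG2 and is the target of ibrutinib. Each of its 2 gene IDs had 0.107, 0.0670 and 0.220 TPM in HA-TAZ 1, 2 and 3 and 0.108, 0.247 and 0.0506 TPM in control a, b and c. The 8 transcripts of one ID had equal values in the other within 0.1%. The libraries of both groups were spread over the same range (exact two-sided permutation p = 0.6 on scaled TPM). Its leading transcript, ENST00000470069.1, is a processed transcript without a coding sequence in GENCODE 29 and held 49.1% of the mean.

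BLNK is the linker that joins SYK to BTK and PLCG2. The gene ID ENSG00000095585 was at 2.38, 3.51 and 1.69 TPM in HA-TAZ 1, 2 and 3 and at 4.44, 3.36 and 2.97 TPM in control a, b and c. Its copy ENSG00000262509, which is not among the primary GENCODE 29 genes, was at 3.20, 2.36 and 3.71 TPM and at 3.89, 3.27 and 3.52 TPM in the same order. The IDs varied against each other among the HA-TAZ libraries: HA-TAZ 2 was the highest of the group in the first and the lowest in the second. Among the HA-TAZ libraries their sum varied less, with 5.58, 5.87 and 5.40 TPM against 8.33, 6.63 and 6.49 TPM, groups that did not overlap before scaling. On scaled TPM the sums were 6.20 ± 0.218 and 6.37 ± 0.451 (SD, n = 3), and the log2 fold change was −0.03 (SE 0.08, 95% interval −0.22 to 0.16, limma adjusted p = 0.797). The separate IDs gave −0.18 (SE 0.19, adjusted p = 0.568) and 0.07 (SE 0.17, adjusted p = 0.815) in limma, and summing them, an alternative chosen after seeing the data, turned the sign of the second.

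Within the BLNK copy, the leading transcript ENST00000574984.2 held 56.2% ± 9.89 of TPM with HA-TAZ and 76.2% ± 7.82 in the controls (SD, n = 3). The groups did not overlap (exact two-sided permutation p = 0.1), as for the leading transcript of 25.7% of all genes examined. Since reads of BLNK can go to either ID, this share is uncertain. The level of ENST00000574984.2 had a log2 fold change of −0.25 (SE 0.12, limma adjusted p = 0.249).

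PLCG2 is the phospholipase that BTK activates. Its TPM was 1.04, 0.869 and 0.849 in HA-TAZ 1, 2 and 3 and 0.818, 1.28 and 1.07 in control a, b and c. The lowest and the highest value were both controls. With a mean just under the threshold of 1 TPM it was not tested in the limma fit over filtered genes. Scaled levels were 1.02 ± 0.160 and 0.953 ± 0.253 scaled TPM (SD, n = 3; exact two-sided permutation p = 0.8). Its full coding transcript ENST00000359376.3 held 52.8% of the mean, and it had a natural log effect of 0.18, a q-value of 0.614 and an implied 143 estimated counts in the authors' deposited table.

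BCL10 is the adaptor that forms filaments with MALT1. Levels of 4.35, 4.89 and 3.76 TPM were found in HA-TAZ 1, 2 and 3 and of 4.65, 4.72 and 4.47 TPM in control a, b and c, with the controls inside the range of the HA-TAZ libraries. Scaled levels were 4.77 ± 0.469 and 4.13 ± 0.255 scaled TPM (SD, n = 3). The log2 fold change was 0.17 (SE 0.10, 95% interval −0.07 to 0.40, limma adjusted p = 0.292), and −0.08 on TPM without scaling. BCL10 has 1 transcript in the table, for which the authors' deposited table lists a natural log effect of 0.16 at a q-value of 0.339.

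MALT1 was by far the most abundant member. The HA-TAZ libraries 1, 2 and 3 held 30.3, 33.2 and 28.6 TPM, against 32.9, 31.4 and 31.5 TPM in control a, b and c, so the groups overlapped as shares of a library. After scaling, it was at 35.0, 34.3 and 32.1 scaled TPM with HA-TAZ and at 27.2, 28.8 and 29.8 scaled TPM in the controls. Every HA-TAZ library then lay above every control, as in 20.2% of all tested genes. The log2 fold change was 0.23 (SE 0.06, 95% interval 0.09 to 0.37), the unadjusted p was 0.00668 and the limma adjusted p was 0.0619, which missed the threshold. With only genes of at least 5 TPM tested, the adjusted p was 0.0431, beside 17.8% of 12613 genes called there, and leaving out any 1 library gave adjusted p-values from 0.0841 to 0.182.

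**Figure D2:**
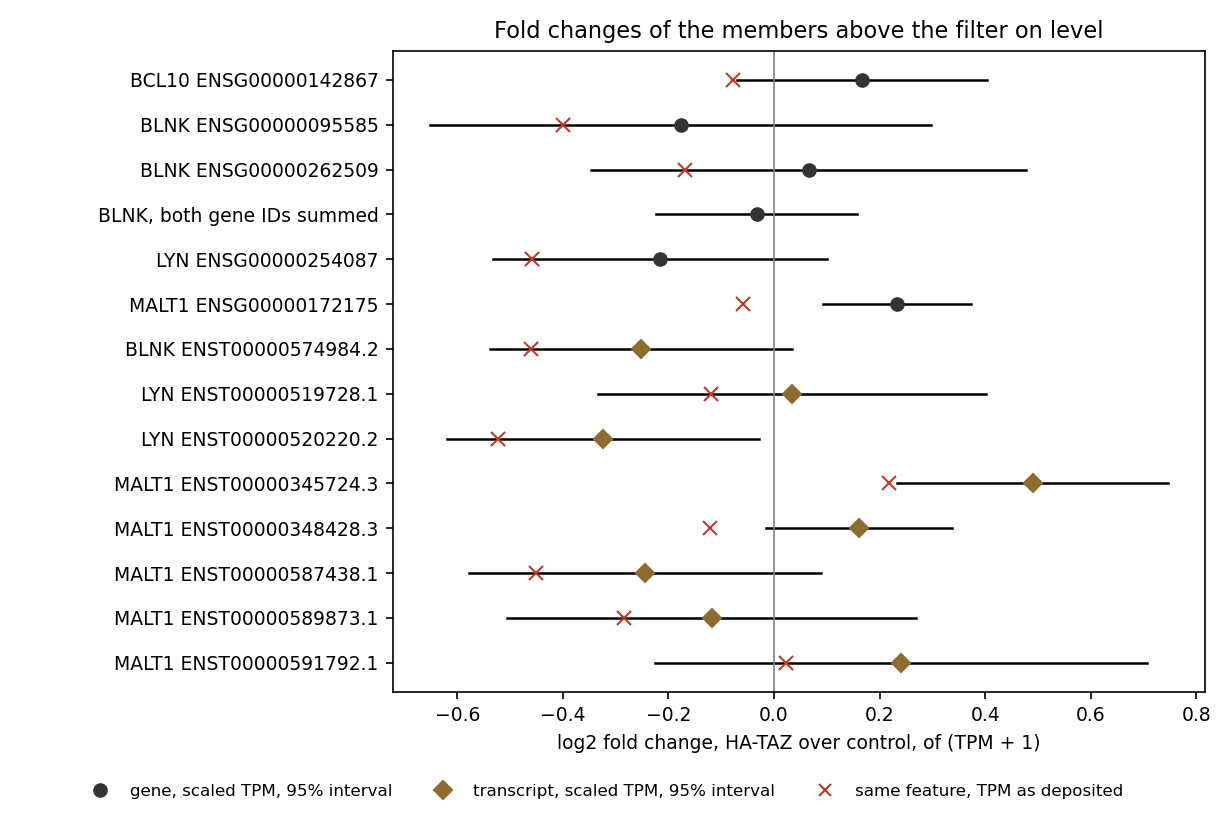
Log2 fold change of (TPM + 1), HA-TAZ over control, for the member gene IDs and transcripts above the filter on level, with 95% intervals from limma on scaled TPM and crosses for TPM as deposited. MALT1 lies at 0.23 after scaling and at −0.06 as deposited, and its transcript ENST00000345724.3 lies above 0 on both.

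The scaling decides the sign for MALT1 and BCL10. Scaling factors were 0.866, 0.967 and 0.890 for HA-TAZ 1, 2 and 3 and 1.21, 1.09 and 1.06 for control a, b and c. The median log2 fold change of all tested genes was −0.03 with this scaling and −0.27 without it. MALT1 was at −0.06 without it (limma adjusted p = 0.560), which is above that median by about as much as its scaled value is above the scaled median. On deposited TPM, 4 of the 12 member gene IDs were lower with HA-TAZ without overlap (both of CD79A, LYN and SYK) and 0 were higher. Of all tested genes, 43.6% were lower and 4.41% higher in this way. Of those 4 gene IDs only LYN was among the tested genes, and the 2 of CD79A carry the same values. On scaled TPM, 1 was higher (MALT1) and 0 were lower, against 20.2% and 18.3%.

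Most of the MALT1 difference lay in the transcript without exon 7. ENST00000345724.3 was at 12.8, 10.8 and 10.4 scaled TPM in HA-TAZ 1, 2 and 3 and at 7.43, 8.40 and 7.44 scaled TPM in control a, b and c. It was higher in every HA-TAZ library than in any control, also on deposited TPM, and 17.0% of all tested transcripts were higher without overlap on scaled TPM. The log2 fold change was 0.49 (SE 0.11, 95% interval 0.23 to 0.75) with a limma adjusted p of 0.0875. With only transcripts of at least 5 TPM tested, the limma adjusted p was 0.0443, beside 1655 of 16904 transcripts called there. Over all 57448 tested transcripts 0.534% were called and 24.1% had an unadjusted p under 0.05. Of the 75 member transcripts 9 were tested, 0 were called, and 2 had an unadjusted p under 0.05 (this one and ENST00000520220.2 of LYN).

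The authors' own test, which models estimated counts and their quantification uncertainty, did call this transcript. Its natural log effect in the authors' deposited table was 0.39 for ENST00000345724.3 (standard error 0.0779), which is 1.48-fold, with a q-value of 5.24e-05 and an implied mean of 1677 estimated counts. It was the only one of 21 member transcripts with statistics there that had a q-value under 0.05, against 5.68% of all 109487 transcripts in either direction and 4.08% in the higher one. ENST00000348428.3, with exon 7, had an effect of 0.14 in the authors' deposited table (standard error 0.0543, q-value 0.125) at an implied 4941 estimated counts.

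In the same libraries ENST00000348428.3 was at 16.0, 16.7 and 15.7 scaled TPM with HA-TAZ and at 14.6, 13.7 and 14.6 scaled TPM in the controls. The groups did not overlap after scaling, as in those 17.0% of transcripts, and overlapped as deposited, and the log2 fold change was 0.16 (SE 0.07, limma adjusted p = 0.236). This transcript held 47.7% ± 1.81 of MALT1 with HA-TAZ and 50.1% ± 3.08 in the controls (SD, n = 3), with overlap (exact two-sided permutation p = 0.4). The other 3 MALT1 transcripts had log2 fold changes of −0.24 (ENST00000587438.1, a retained-intron model), −0.12 (ENST00000589873.1) and 0.24 (ENST00000591792.1), each at most 3.47 scaled TPM in any library and with limma adjusted p-values of 0.321, 0.680 and 0.474.

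**Figure D3:**
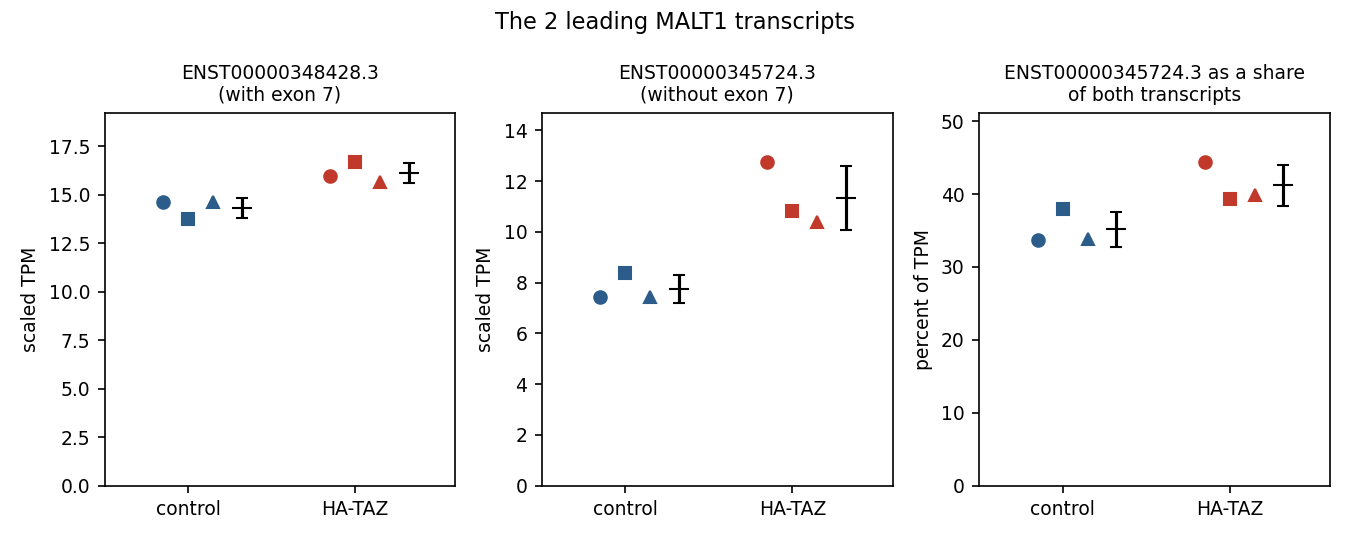
Scaled TPM of the MALT1 transcripts with and without exon 7, and the transcript without exon 7 as a percent of both, for each library, with mean ± SD (n = 3) and all axes from 0. The transcript without exon 7 lies between 10.4 and 12.8 scaled TPM with HA-TAZ and between 7.43 and 8.40 in the controls, and its share between 39.3% and 44.4% against 33.7% and 38.0%.

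Of the sum of both leading transcripts, ENST00000345724.3 made up 44.4%, 39.3% and 39.9% in HA-TAZ 1, 2 and 3 and 33.7%, 38.0% and 33.8% in control a, b and c. The means were 41.2% ± 2.82 and 35.2% ± 2.42 (SD, n = 3; exact two-sided permutation p = 0.1), and HA-TAZ 2 and control b were the nearest libraries of the groups. A share does not depend on the scaling. Groups did not overlap in the ratio of the 2 leading transcripts in 27.9% of the 9275 genes with such a pair. In a limma test of that ratio, added after seeing the data, the log2 ratio of ENST00000345724.3 to ENST00000348428.3 was higher by 0.37 (SE 0.16, limma adjusted p = 0.247), and 0.0216% of the genes were called. The ratio thus did not pass this test.

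These 2 transcript models do not differ in exon 7 alone. In GENCODE 29 they are 9368 and 2866 bases long, a ratio of 3.27, with most of the excess outside the coding part. The authors' annotation also held them at different lengths, since the estimated counts per TPM implied by the authors' deposited table differed by a factor of 1.82. Reads in the unequal ends therefore enter the estimates with those over exon 7, and the part of exon 7 was not tested. An antisense gene, AC104365.1, overlaps MALT1 in GENCODE 29 and was at a mean of 5.65 TPM with HA-TAZ and 7.83 TPM in the controls. Whether the counting used the strand is not given in the sources used here. BCL10 overlaps the antisense gene AL078459.1 (1.78 and 2.18 TPM), BLNK overlaps ZNF518A on the opposite strand (7.86 and 10.8 TPM), and LYN overlaps RN7SL798P (2.85 and 4.91 TPM), so their values share this uncertainty.

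MALT1 exceeded its partner BCL10 in every library. Its TPM was 6.65 to 7.59 times that of BCL10. This ratio was 7.12 ± 0.422 with HA-TAZ and 6.93 ± 0.243 in the controls (SD, n = 3; exact two-sided permutation p = 0.6).

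In order of TPM, MALT1 came first, BLNK with both IDs summed came next (5.40 to 8.33 TPM), and BCL10 (3.76 to 4.89 TPM) and LYN (2.92 to 5.40 TPM) overlapped each other. PLCG2 followed at 0.818 to 1.28 TPM. SYK, BTK and CD79A overlapped in their ranges, and CD79B was lowest.

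Where a receptor kinase was low, other members of its family were often abundant. These comparisons of TPM, which is corrected for transcript length, were made after the levels were seen and describe levels only. The Src family kinases FYN (45.6 to 65.3 TPM) and FGR (46.1 to 54.1 TPM) exceeded LYN, FYN by 12.1 to 17.8 times and FGR by 9.27 to 17.0 times. BLK, the Src kinase typical of B cells, stayed below 1 TPM in every library.

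TEC exceeded the summed BTK by 19.1 to 120.3 times, a wide range because BTK is near 0. PLCG1, the isoform used by T cell and growth factor receptors, exceeded PLCG2 by 6.09 to 8.84 times. It did not pass the test (log2 fold change 0.10, SE 0.13, limma adjusted p = 0.634). PRKCA exceeded PRKCB, the main protein kinase C of B cell receptor signalling, by 90.9 to 189.9 times. The SYK paralogue ZAP70 was at 0.0238 to 0.274 TPM, a range that overlaps that of SYK.

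**Figure D4:**
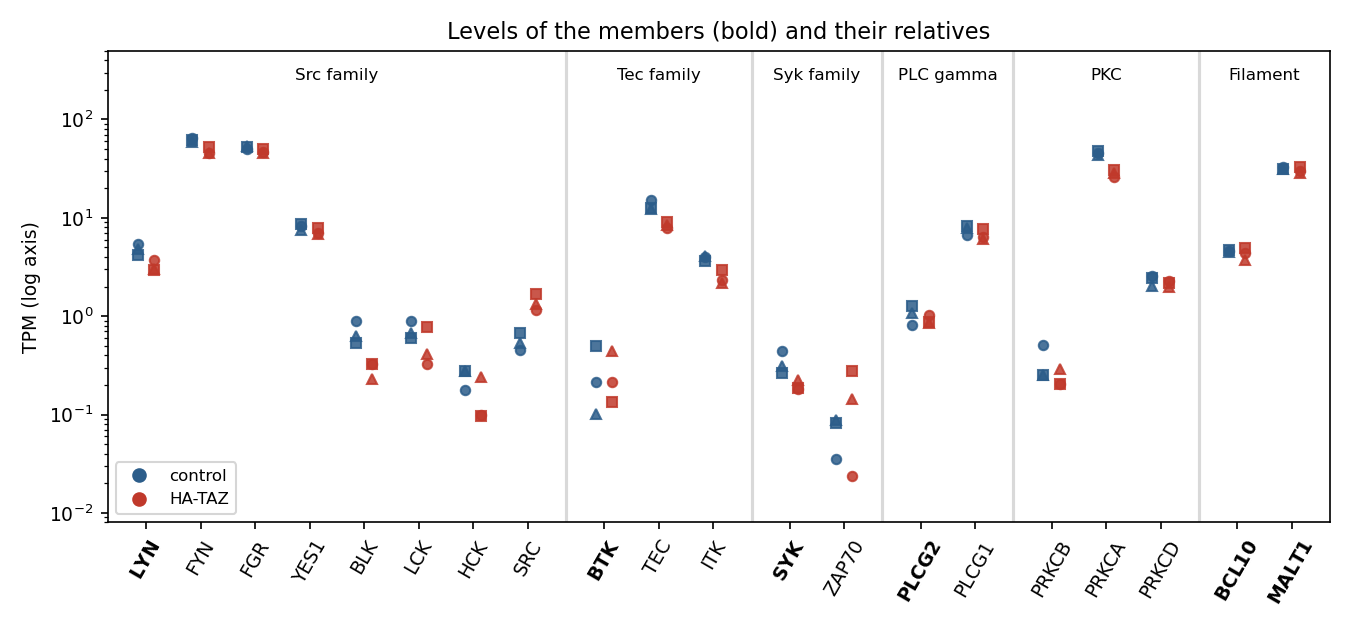
TPM on a log axis of the members (bold) and of their relatives in each library, with controls left and HA-TAZ right at each gene and BTK summed over its 2 gene IDs. FYN and FGR lie above 45 TPM and LYN below 6 TPM, and TEC, PLCG1 and PRKCA lie above BTK, PLCG2 and PRKCB in all 6 libraries.

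Around the members, 9 lists with 109 other genes of the pathway, chosen with earlier results of these data known, were examined. Of these genes, 78 passed the filter on level. In limma 4 rose and 4 fell, 10.3% of those tested beside 7.29% of all genes, of which 4.67% rose and 2.63% fell. The median log2 fold change over the 78 was 0.06, beside −0.03 for all genes, and on deposited TPM it was −0.21 beside −0.27.

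At the surface, 4 of 7 coreceptor genes and surface partners were tested and 1 fell. CD38, an ectoenzyme of plasma cells and the target of daratumumab, went from 15.3, 17.9 and 17.3 scaled TPM in control a, b and c to 9.96, 11.4 and 10.8 scaled TPM in HA-TAZ 1, 2 and 3. The groups were well apart, and the fitted fold change was −0.61 on the log2 scale (SE 0.08, limma adjusted p = 0.0226). Leaving out 1 library gave adjusted p-values from 0.0374 (without control a, the only omission that kept the call) to 0.0896. CD38 is also one of the plasma cell markers, whose summed level, mostly IGJ, was lower with HA-TAZ. The tetraspanin CD81 had 0.40 (SE 0.13, limma adjusted p = 0.102).

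Among other Src, Tec and Syk family kinases and their regulators, 6 of 13 were tested and 1 fell. TEC was at 9.14, 9.45 and 9.45 scaled TPM in HA-TAZ 1, 2 and 3 and at 12.6, 11.7 and 11.5 scaled TPM in control a, b and c, without overlap. Its log2 fold change was −0.32 (SE 0.06, limma adjusted p = 0.0416). The call was lost without any 1 of the 6 libraries (adjusted p from 0.0724 to 0.136). FYN and FGR had −0.07 and 0.16 and did not pass (limma adjusted p = 0.288 and 0.239). Of 13 inhibitory receptors and phosphatases, 6 were tested and 0 passed. The inhibitory receptors CD22, CD72 and FCGR2B stayed below 1 TPM in every library, while the lipid phosphatase INPP5D (SHIP1) had 0.05 (SE 0.06, limma adjusted p = 0.575).

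Among PI3K subunits and adaptors 15 of 17 were tested and 1 rose. GRB2, an adaptor that couples receptors to Ras, was at 74.5, 73.2 and 71.6 scaled TPM in HA-TAZ 1, 2 and 3 and at 57.8, 61.3 and 54.5 scaled TPM in control a, b and c. Its log2 fold change was 0.33 (SE 0.05, limma adjusted p = 0.0321), but it was 0.04 on deposited TPM (adjusted p = 0.770), and the call was lost without any 1 library (0.0602 to 0.120). Of 9 Ras and MAPK genes all were tested and 0 passed.

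In the calcium, protein kinase C and NFAT list 14 of 17 were tested and 2 fell. ITPR2, an inositol trisphosphate receptor that releases stored calcium, was at 3.18, 3.26 and 2.47 scaled TPM in HA-TAZ 1, 2 and 3 and at 5.62, 6.15 and 4.86 scaled TPM in control a, b and c. Its log2 fold change was −0.72 (SE 0.13, limma adjusted p = 0.0367). PRKCA, a calcium-dependent protein kinase C, was at 30.1, 31.9 and 32.4 against 37.9, 43.8 and 40.7 scaled TPM, with −0.36 (SE 0.07, limma adjusted p = 0.0394). Both were apart without overlap on both scales. Both calls were lost without any 1 library, with adjusted p-values from 0.0591 to 0.114 for ITPR2 and from 0.0535 to 0.130 for PRKCA.

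Downstream of MALT1, 0 of 16 tested genes for CARD scaffolds, linear ubiquitin and the IKK complex passed (17 in the list), and their median log2 fold change was 0.21 (−0.08 on deposited TPM, against −0.27 for all genes). The smallest adjusted p there was that of RBCK1, a subunit of the linear ubiquitin ligase, with 0.43 (SE 0.09, limma adjusted p = 0.0509), named after its value was seen.

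All 7 genes listed as protease substrates of MALT1 were tested, and 3 rose, beside 4.67% of all genes. With only genes of at least 5 TPM tested, 1513 of 12613 genes rose. The list was chosen with earlier results of these data known, so its count is a description and not a test of the list. TNFAIP3 encodes A20, a ubiquitin-editing enzyme that dampens NF-kappaB. It was at 43.6, 42.7 and 36.5 scaled TPM in HA-TAZ 1, 2 and 3 and at 18.4, 19.2 and 18.4 scaled TPM in control a, b and c. The log2 fold change was 1.09 (SE 0.08, limma adjusted p = 0.00480), and it passed without any 1 library (adjusted p from 0.0118 to 0.0347) and in all 12 alternatives, counting each left-out library as 1.

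RELB, the subunit that mediates the non-canonical NF-kappaB pathway, was at 31.4, 27.6 and 31.2 against 10.8, 13.5 and 14.2 scaled TPM in the same order. Its log2 fold change was 1.18 (SE 0.11, limma adjusted p = 0.0106). It passed in 9 of 12 alternatives and missed the threshold without HA-TAZ 1 (0.0613), without HA-TAZ 3 (0.0515) and without control b (0.0504). CYLD, a deubiquitinase that restrains NF-kappaB and JNK signalling, was at 35.9, 38.9 and 35.4 against 22.4, 25.2 and 25.1 scaled TPM. It had 0.58 (SE 0.07, limma adjusted p = 0.0146) and 0.29 on deposited TPM (adjusted p = 0.0666), and it passed in 7 of 12 alternatives. Without control a and without control c it kept the call, and the other 4 omissions gave adjusted p-values of up to 0.0693.

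TNFAIP3 and RELB are known as transcriptional targets of NF-kappaB as well as substrates, and cleavage by MALT1 acts on the proteins, which RNA does not measure. The other 4 substrates did not pass: ZC3H12A had 0.17, RC3H1 −0.42, RC3H2 −0.05 and N4BP1 0.12 (limma adjusted p = 0.157, 0.0832, 0.612 and 0.347).

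**Figure D5:**
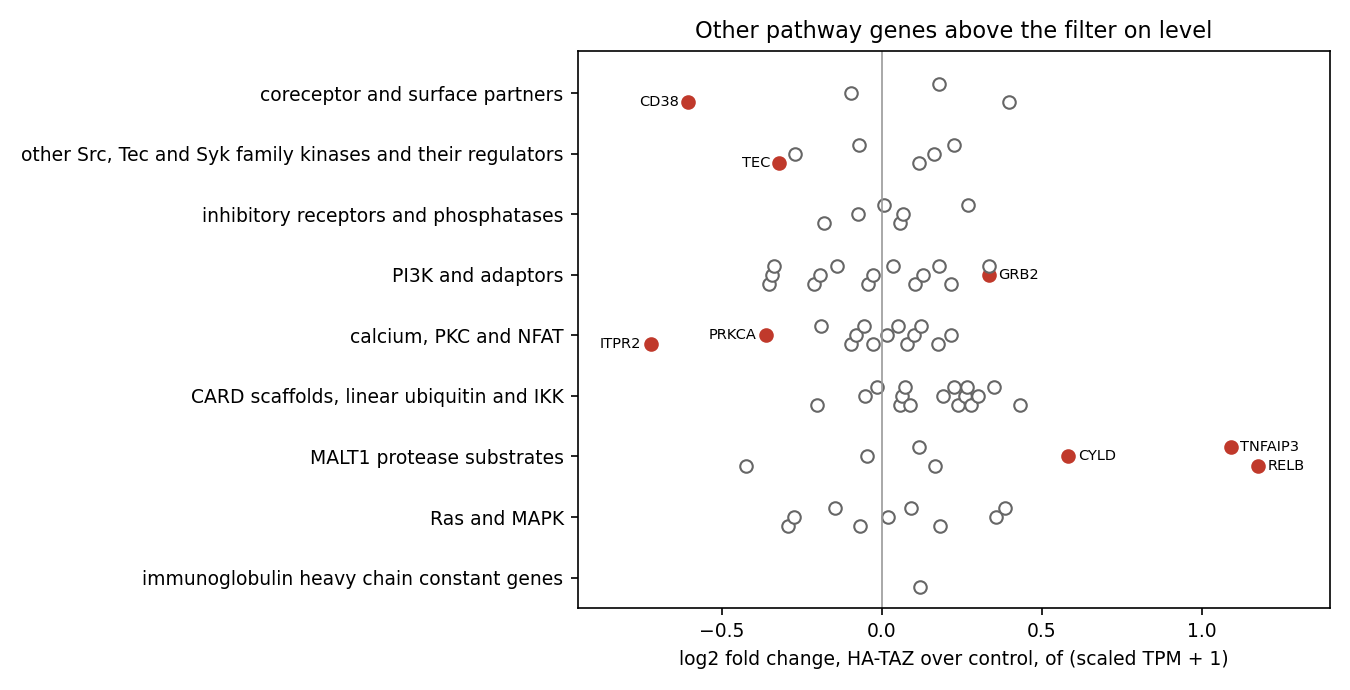
Log2 fold change of (scaled TPM + 1), HA-TAZ over control, for the 78 other pathway genes above the filter on level, by list, with filled points for limma adjusted p under 0.05 and vertical offsets only to separate points. The 3 rises among MALT1 protease substrates, from 0.58 to 1.18, and the falls of CD38 and ITPR2 stand furthest from 0.

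MALT1 had the smallest adjusted p of the members. The genes whose scaled log2 levels followed it most closely over the 6 libraries were AC108142.1, an antisense RNA (Pearson r = 0.998), and NAT6 under 2 gene IDs with the same values (r = 0.997). As a description only, 568 genes had an r above 0.95 with MALT1, which 6 libraries in 2 groups make common.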

How the data were processed

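The authors deposited TPM per transcript for 6 libraries of total RNA, and a table of their own test per transcript with p-values, q-values, effects and means on the natural log scale and standard errors, per the file headers. The submitters' processing notes name kallisto 0.46.0, sleuth 0.30.0 and GRCh37, while the annotation release and the use of strand are not given in the sources used here. TPM was summed per gene ID and divided by median-of-ratios factors over 21512 genes with a mean of at least 1 TPM and above 0 in all libraries. Genes (22651) and transcripts (57448) with a mean of at least 1 TPM were tested two-sided with limma 3.58.1 (R 4.3.3) on log2 values of scaled TPM with a pseudocount of 1, its trend option on, a Benjamini-Hochberg adjustment over all tested features and a threshold of 0.05. Fold changes on this scale understate changes of low genes. Single values were compared by exact two-sided permutation, whose smallest p for 3 against 3 is 0.1. Isoform shares were taken from TPM. GENCODE 29 (GRCh38) gave transcript models and the exon sequence. The limma script was tested on simulated data. Python 3.11.15, scipy 1.17.1 and matplotlib 3.10.9 were used.

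The 9 members and the lists were chosen with earlier results of these data known. Named are all members, the called genes of each pathway list (at most the 4 with the smallest adjusted p) with PLCG1 always, the leading member transcripts with any other above 20% of the gene or called, and the 3 gene IDs most correlated with the member of smallest adjusted p. Other genes are named after their values were seen. Some items named by this rule are not reported here.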

Additional observations from a re-analysis of the deposited data

How the results depend on the processing

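No paired analysis was possible because the control columns carry a name found in no label and their numbers cannot be tied to numbered samples, so the planned replicate block was not run. With 1652 genes called (64.0% of them higher with HA-TAZ), the count was 3329 on TPM as deposited (7.84% higher), 625 with no filter on level (75.4% higher), 758 for limma without trend (60.8% higher), and 115 to 433 with 1 library left out; factors over genes of at least 10 TPM gave 1447 (43.2% higher). Of 307 transcripts called, deposited TPM left 120, no trend 156, a mean of at least 5 TPM gave 1655, and leaving out 1 library 12 to 91. Pathway genes called went from 8 to 16 on deposited TPM, 4 with no filter, 5 with no trend and 1 to 4 with 1 library left out. At a mean of at least 5 TPM 1 member was called (MALT1, 0.23, adjusted p = 0.0431) and 1 member transcript (ENST00000345724.3, 0.49, adjusted p = 0.0443); no other alternative called a member, and with 1 library left out the counts were 0 to 0. On deposited TPM the log2 fold change turned to −0.078 for BCL10 (gene and its transcript), −0.17 for BLNK ENSG00000262509, −0.058 for MALT1, −0.12 for ENST00000348428.3 and −0.12 for LYN ENST00000519728.1, by the scaling itself. BLNK ENSG00000262509 was also −0.033 with its IDs summed, and between −0.055 (without HA-TAZ 3) and 0.24 with 1 library left out; LYN ENST00000519728.1 was −3.7e-03 with factors over genes of at least 10 TPM and −0.073 to 0.11 with 1 library left out. The cause was not tested for these. MALT1 ENST00000589873.1 ranged from −0.23 to 0.020 with 1 library left out, and the share of the leading BLNK ENSG00000095585 transcript, HA-TAZ minus control, from −5.74 to 1.95 percentage points. The sign of LYN (−0.32 to −0.13), MALT1 (0.20 to 0.27) and ENST00000345724.3 (0.41 to 0.54) was kept without any 1 library. CD79A, CD79B, BTK, SYK and PLCG2 were below the filter of 1 TPM, and 0 members were called with no filter on level. The depth of each library is unknown.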
